A study of Homo sapiens with 45 samples.

Results

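ITGB8, ASPH, PKIA, MAP7, DDAH1 and LMO7 are 6 genes that stood well above the control with 1 or more of 3 transfected microRNAs (miRNAs) in cancer cell lines. They were chosen by those measured differences from the control, so the differences themselves are described here without a test. Every probe set annotated to 1 of these symbols was taken on its own. This gave 27 probe sets of the 54675 on the array, of which 24 passed a filter on dim signals that kept 29950 probe sets of 15029 genes. The filter asked that the highest group mean exceed the median of all values, 4.88 on the log2 scale, which is taken as the level near background. Where 1 of 2 group means lies below that level, their difference is a bound and the true one may be larger. One ITGB8 probe set and 2 of LMO7 did not pass. All values are log2 intensities.

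HEY and SKOV3 are ovarian cancer lines while PC3 comes from prostate cancer. A Pre-miR precursor was delivered to each with Lipofectamine at 33 nM for 48 h: that of miR-203a, of miR-205, of miR-429, or a negative control called miR-NC here. These 12 groups hold 3 arrays each, 36 in all, and a further 9 arrays are labelled untransfected. Whether the 3 arrays in a group stand for separate cultures is not in the labels, so errors and p-values cover only the spread between arrays, whose number limits the precision.

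The 9 arrays labelled untransfected go against their labels. ERBB2, which SKOV3 is known to amplify, lay between 11.25 and 11.75 on the transfected SKOV3 arrays and between 5.88 and 7.94 on the transfected arrays of the other lines. It read 11.93 to 12.70 on the arrays labelled untransfected HEY and 7.17 to 7.90 on those labelled untransfected SKOV3. PAX8, an ovarian lineage gene, lay at 5.54 to 7.14 in transfected PC3 and at 10.67 to 11.22 on the arrays labelled untransfected PC3. These 9 arrays therefore enter no comparison, and their values are given by label only. HOXB13, a prostate marker, ran from 4.85 to 8.38 in transfected PC3 and from 6.03 to 6.88 in transfected SKOV3, so it did not set PC3 apart. It read 11.62 to 11.78 on the arrays labelled untransfected SKOV3 and as low as 4.10 on those labelled untransfected PC3, all below transfected PC3. The blood cell genes PTPRC and CD3E reached at most 3.60 and 4.73 on the transfected arrays, and HBB at most 5.49. Array medians ran from 4.49 to 4.98, and arrays of a transfected group correlated at 0.981 or more. The control probe set at the 5′ end of GAPDH, which follows how far labelled RNA reaches from the 3′ end, moved with the groups in some lines. In SKOV3 the 5′ and 3′ controls of GAPDH and actin all read between 13.63 and 13.83, near the top of the scale, so no difference between groups could be seen in them there. The mean of the 5′ GAPDH control differed from miR-NC by 0.58, 3.92 and -2.11 in HEY and by 4.95, 3.66 and -0.50 in PC3, for miR-203a, then miR-205, then miR-429. In that order the 3′ GAPDH control differed by 0.07, 1.48 and 1.31 in HEY and by 2.01, 1.82 and -0.32 in PC3. The 5′ actin control differed by 0.75, 1.22 and -0.97 in HEY and by 3.73, 2.73 and -0.55 in PC3. The 3′ actin control differed by -0.03 to 0.35 in these groups. How much of the 5′ GAPDH differences is reach was not tested, nor was the part of these signals in the HEY and PC3 differences.

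A miRNA lowers the transcripts that pair with bases 2 to 8 of its strand, the seed, so a transcript that goes up is usually not its direct target. The miR-200 family, to which miR-429 belongs, and miR-205 are known for repressing the ZEB factors and holding epithelial cells in their state, and miR-203a is known from skin differentiation. The 6 genes have separate roles. ITGB8 is the β8 integrin chain, ASPH a hydroxylase of the endoplasmic reticulum (ER), PKIA an inhibitor of protein kinase A, DDAH1 an enzyme that breaks down methylated arginine, MAP7 a microtubule-associated protein and LMO7 a LIM-domain protein of cell junctions.

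The mature strands of the 3 miRNAs are shown because members differ in which of them they respond to. They are taken from RefSeq on GRCh38.p14, with seed bases in capitals, and the labels do not name the strand. The genes lie on the plus strand, at chr14:104117469-104117490 for miR-203a-3p, chr1:209432166-209432187 for miR-205-5p and chr1:1169055-1169076 for miR-429. No seed is shared among them.
hsa-miR-203a-3p: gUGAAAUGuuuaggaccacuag
hsa-miR-205-5p: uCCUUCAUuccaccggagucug
hsa-miR-429: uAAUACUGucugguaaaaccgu

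ITGB8 pairs with the αv chain to form a receptor that binds and activates latent TGF-β. Its brightest probe set, 226189_at, was low in SKOV3 only under miR-NC, at 6.35, 6.05 and 6.49. With miR-203a it read 10.02, 9.34 and 9.19, with miR-205 9.95, 10.12 and 9.72, and with miR-429 10.05, 9.96 and 10.22. All 9 miRNA arrays thus lay above the 3 control arrays, while the 3 miRNA groups overlapped one another. The differences were 3.22, 3.63 and 3.78 (SE 0.20 for each, n = 3), or 9.31-, 12.4- and 13.7-fold. All 3 use the same miR-NC arrays. In PC3 the controls read 8.47, 8.58 and 8.03, against 9.01, 9.51 and 9.46 with miR-203a, 9.48, 9.20 and 9.31 with miR-205, and 10.31, 10.37 and 10.75 with miR-429. There, miR-429 stood above the other miRNAs as well, with a difference from miR-NC of 2.12 ± 0.20 (SE, n = 3) against 0.97 ± 0.20 with each of the others. In HEY the control arrays, at 3.99, 4.46 and 4.42, lay below the background level, so differences there are bounds. The HEY arrays read 6.18, 6.31 and 5.89 with miR-203a, 4.95, 5.12 and 5.10 with miR-205, and 4.99, 5.20 and 5.67 with miR-429. HEY was thus the line where miR-203a stood highest, at 1.83 ± 0.20 over miR-NC.

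The other ITGB8 probe sets were dimmer. In SKOV3 their control means lay below background, at 4.43 for 205816_at and 3.77 for 211488_s_at, and every miRNA array lay above the controls. The differences were at least 1.00, 0.98 and 1.15 for the first and at least 1.29 with miR-203a for the second, whose means with miR-205 and miR-429 also lay below background. In PC3 with miR-429 the same probe sets gave 0.34 and -0.15 with overlapping arrays, where 226189_at gave 2.12. A probe set that may cross-hybridise, 242982_x_at, ranged from -0.29 in PC3 with miR-205 to a bound of 0.71 in SKOV3 with miR-203a. The probe set that did not pass the filter, 1563010_at, had no group mean above 4.31. On the arrays labelled untransfected, 226189_at lay at 8.55 to 10.88 for HEY, 10.87 to 11.23 for SKOV3 and 4.83 to 5.23 for PC3.

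ASPH encodes the aspartyl/asparaginyl β-hydroxylase, and the same locus makes the calcium-handling proteins junctin and junctate. Its brightest probe set, 209135_at, read 8.03, 7.26 and 7.84 in SKOV3 under miR-NC. It read 10.81, 10.39 and 10.06 with miR-203a, 11.93, 12.02 and 11.68 with miR-205, and 11.67, 11.96 and 11.93 with miR-429. The miR-205 and miR-429 arrays overlapped and both groups lay above miR-203a. The differences from miR-NC were 2.71, 4.16 and 4.14 (SE 0.15 for each, n = 3), or 6.54-, 17.9- and 17.7-fold. HEY and PC3 held high levels already under miR-NC, at 12.37, 12.27 and 12.36 and at 12.54, 12.44 and 12.31. The miRNA arrays still lay above them in both lines, by 0.43, 0.43 and 0.83 in HEY and by 0.36, 0.39 and 1.09 in PC3 (SE 0.15). In each of these lines miR-429 gave the highest level, with arrays at 13.12, 13.19 and 13.18 in HEY and at 13.51, 13.49 and 13.56 in PC3. These levels are close to the 13.63 to 13.83 of the SKOV3 controls near the top of the scale. Whether this limits the differences was not tested.

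The 9 ASPH probe sets did not move as one. 210896_s_at followed the brightest in SKOV3, at 9.43, 9.46 and 9.64 under miR-NC and between 11.64 and 11.98 on the 9 miRNA arrays, with differences of 2.30, 2.37 and 2.22. In HEY with miR-205 its arrays lay below the controls, by 0.72, where 209135_at lay 0.43 above. 229879_at lay below miR-NC on all arrays in HEY, by 0.33, 0.84 and 1.67, and in PC3 with miR-203a and miR-205, by 0.99 and 1.11. In HEY with miR-429, 224996_at, 225008_at and 207284_s_at also lay below the controls, by 0.94, 0.52 and at least 1.40. 210896_s_at lay 0.31 above them there. 207284_s_at and 230429_at were high in PC3 under miR-NC, with means of 8.43 and 7.01. They differed there by -1.50 and -1.63 with miR-203a and by -1.39 and -1.48 with miR-205. 225008_at and 224996_at differed by 1.86 and 0.93 in SKOV3 with miR-205 and by -0.16 and -0.11 with miR-203a, where the arrays overlapped. Which transcripts of the locus each probe set reads is not given in the sources used here. On the arrays labelled untransfected, 209135_at lay at 11.24 to 11.49 for HEY, 10.90 to 11.14 for SKOV3 and 11.75 to 11.82 for PC3.

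PKIA is a small protein that binds the catalytic subunits of protein kinase A (PKA), the kinase switched on by cyclic AMP, and blocks them. In SKOV3 its brightest probe set, 204612_at, read 5.12, 5.69 and 5.45 under miR-NC. It read 8.57, 8.59 and 8.51 with miR-203a, 9.54, 9.72 and 9.58 with miR-205, and 7.33, 6.89 and 6.87 with miR-429. No groups overlapped there, and the order was miR-205, miR-203a, miR-429 and miR-NC, with differences of 4.19, 3.13 and 1.61 (SE 0.13 for each, n = 3), or 18.3-, 8.78- and 3.05-fold. In PC3 the controls read 9.96, 9.77 and 9.59. The miRNA arrays read 10.94, 11.14 and 11.21 with miR-203a, 11.44, 11.37 and 11.23 with miR-205, and 10.99, 10.99 and 11.05 with miR-429. Every one lay above the controls, with differences of 1.32, 1.57 and 1.24 (SE 0.13). In HEY the controls read 10.00, 10.08 and 9.94, and the arrays read 11.67, 11.56 and 11.61 with miR-203a, 10.39, 10.53 and 10.51 with miR-205, and 9.17, 9.31 and 9.54 with miR-429. Here miR-429 lay below the control, by 0.67, while miR-203a and miR-205 lay above it by 1.60 and 0.47.

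The other PKIA probe set, 226864_at, gave 1.96, 2.78 and 1.45 in SKOV3, 1.44, 1.20 and 1.01 in PC3 and 1.38, 1.51 and -0.05 in HEY, in the order miR-203a, miR-205 and miR-429. Its arrays overlapped the controls in HEY with miR-429 and lay above them in the other 8 comparisons. Its SKOV3 control mean, 3.72, lay below the background level, so the SKOV3 differences are bounds. On the arrays labelled untransfected HEY, 204612_at read 5.08, 9.50 and 9.06, 1 array standing far below the other two. It lay at 9.65 to 9.83 on those labelled SKOV3 and at 9.77 to 9.82 on those labelled PC3.

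DDAH1 hydrolyses asymmetric dimethylarginine, an inhibitor of nitric oxide synthases. Its probe set 209094_at was the steadiest of the 6 between arrays. In SKOV3 it read 8.18, 8.07 and 8.07 under miR-NC, 11.22, 11.24 and 11.28 with miR-203a, 10.78, 10.56 and 10.78 with miR-205, and 9.67, 9.53 and 9.55 with miR-429. No groups overlapped, and the order was miR-203a, miR-205, miR-429 and miR-NC. The differences were 3.14, 2.60 and 1.47 (SE 0.08 for each, n = 3), or 8.80-, 6.05- and 2.78-fold. HEY and PC3 started far higher. The PC3 controls read 12.44, 12.49 and 12.42, and the miRNA arrays lay above them by 0.59, 0.44 and 0.50 (SE 0.08). The HEY controls read 13.02, 12.94 and 13.01, and only the miR-203a arrays lay above them, by 0.32. The miR-205 arrays in HEY, at 12.64, 12.54 and 12.61, and the miR-429 arrays, at 12.70, 12.74 and 12.71, lay below the controls, by 0.39 and 0.28.

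The other DDAH1 probe sets differed from it. 1553565_s_at lay above miR-NC in SKOV3 by at least 1.53 with miR-203a and 0.96 with miR-205, and overlapped it with miR-429. 243711_at was near background in SKOV3, with group means between 3.45 and 3.86. In HEY it read 9.12, 9.19 and 8.92 under miR-NC and lay lower with all 3 miRNAs, by 0.56, 1.84 and 0.87. In PC3 its control mean was 7.09. There it lay below miR-NC by 1.22 with miR-203a and 1.53 with miR-205, where 209094_at lay above, and 1.10 above with miR-429. 229456_s_at lay at least 2.22 and 1.45 above miR-NC in PC3 with miR-203a and miR-205, and at least 1.35 below it in HEY with miR-205. On the arrays labelled untransfected, 209094_at lay at 8.65 to 9.51 for HEY, 9.24 to 9.53 for SKOV3 and 12.81 to 12.86 for PC3.

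MAP7 binds along microtubules and recruits the motor kinesin-1. By its brightest probe set it stood high with miR-429 in each line. In SKOV3 its brightest probe set, 202890_at, read 3.93, 4.32 and 4.41 under miR-NC and 7.82, 7.73 and 7.82 with miR-429. With miR-205 it read 5.44, 5.57 and 5.51, and with miR-203a 4.12, 4.54 and 4.45, which overlapped the controls. The control mean, 4.22, lies below the background level, so the differences are at least 3.57 for miR-429, or 11.9-fold, and at least 1.28 for miR-205 (SE 0.16 for each, n = 3). The miR-203a mean lies below that level too. In HEY the controls read 6.42, 6.48 and 6.61, against 7.44, 7.99 and 8.04 with miR-429 and 5.61, 5.27 and 5.54 with miR-205. In PC3 they read 9.68, 9.70 and 9.46, against 10.87, 10.95 and 11.17 with miR-429. The miR-429 differences were 1.32 and 1.38 (SE 0.16), while miR-205 lay 1.02 below the control in HEY and overlapped it in PC3. With miR-203a the arrays lay below the controls in HEY and PC3, by 0.22 and 0.56.

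The other MAP7 probe sets, 202889_x_at and 215471_s_at, had control means below background in SKOV3 and HEY. With miR-429 they lay at least 1.72 and 1.91 higher in SKOV3 and at least 0.86 and 1.10 higher in HEY, with every array above the controls. In PC3 with miR-429 they gave 0.67 and 0.65, and the second overlapped its controls. With miR-205 they gave 0.76 and 0.70 there, and with miR-203a 0.65 and 0.21. Their highest means in PC3 were thus with miR-205, not miR-429. On the arrays labelled untransfected, 202890_at lay at 5.16 to 7.31 for HEY, 8.46 to 8.66 for SKOV3 and 5.98 to 6.31 for PC3.

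LMO7 binds afadin and α-actinin and links nectins to the actin cytoskeleton at adherens junctions. It stood out in 1 group. The probe set 242722_at read 10.01, 10.10 and 9.82 in HEY with miR-429, against 5.37, 5.79 and 5.34 under miR-NC, 6.30, 6.16 and 6.09 with miR-203a and 6.17, 6.49 and 5.66 with miR-205. The miR-429 difference was 4.48 ± 0.17 (SE, n = 3), or 22.3-fold. In SKOV3 the controls read 6.89, 6.84 and 6.83 and the miR-429 arrays 7.17, 6.95 and 7.17, a difference of 0.24. In PC3 the controls read 6.24, 6.34 and 6.56 and the miR-429 arrays overlapped them, at 6.49, 6.28 and 6.15. PC3 differed by 0.87 with miR-203a, where its arrays read 7.56, 7.27 and 6.92.

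202674_s_at, the other LMO7 probe set that passed, went the other way in HEY. It lay below miR-NC there by 1.61 with miR-429 and by at least 2.95 with miR-205, and in PC3 by 1.30 with miR-203a and 1.19 with miR-205. 1556377_s_at, which did not pass, had its highest group mean, 4.11, in HEY with miR-429, and all 3 arrays there lay above the controls, though both means lay below background. In HEY with miR-429 the 5′ GAPDH control differed from miR-NC by -2.11 and the 3′ GAPDH control by 1.31, and the part of this in the LMO7 difference was not tested. On the arrays labelled untransfected, 242722_at lay at 5.30 to 6.61 for HEY, 8.34 to 8.59 for SKOV3 and 6.31 to 6.87 for PC3.

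**Figure D1:**
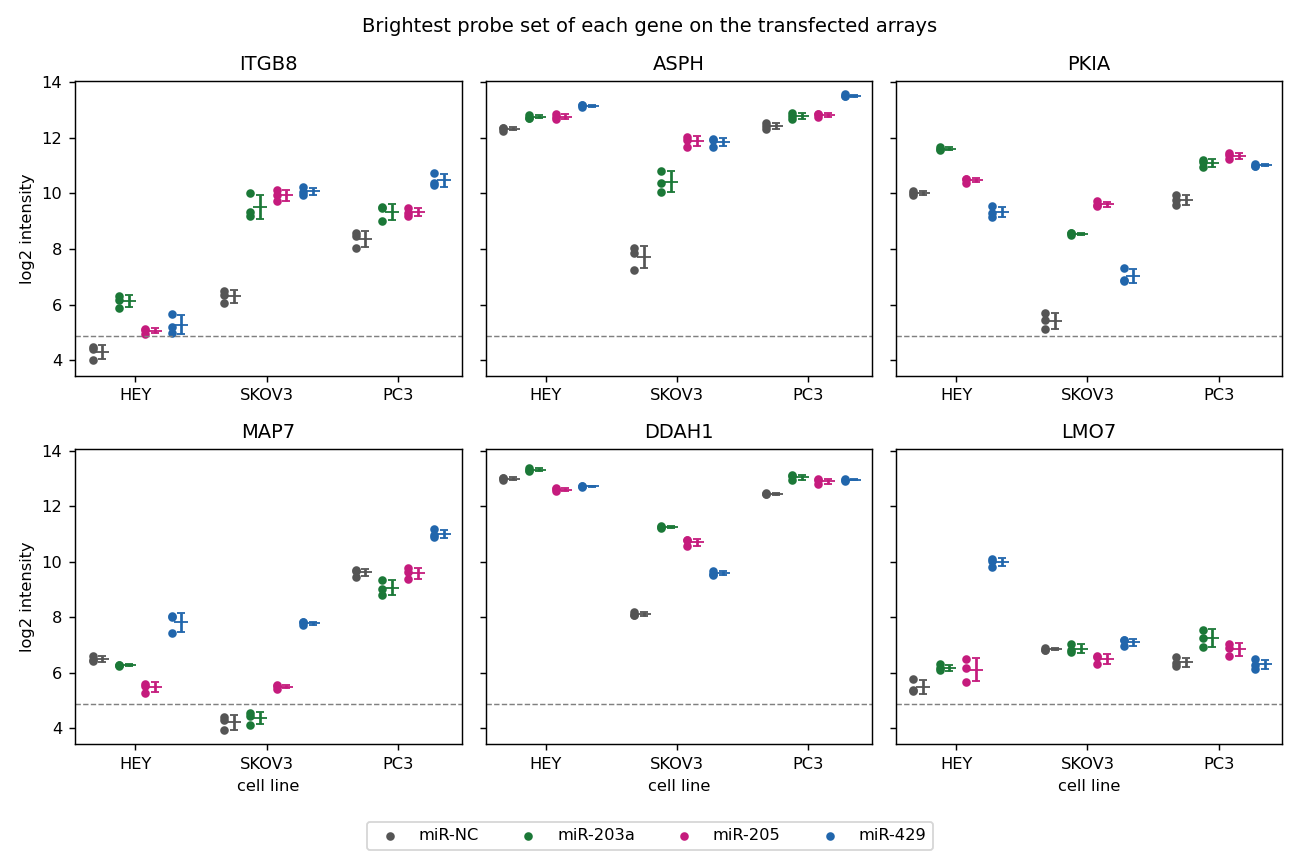
Log2 intensity of the brightest probe set of each gene on every transfected array, by line and precursor, with points for arrays, error bars for the group mean ± SD and a dashed line at 4.88, the level near background. ITGB8, ASPH, PKIA and DDAH1 are lowest in SKOV3 under miR-NC within that line, MAP7 is highest with miR-429 in each line, and LMO7 stands at 9.98 in HEY with miR-429 against a highest mean of 7.25 elsewhere.

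**Figure D2:**
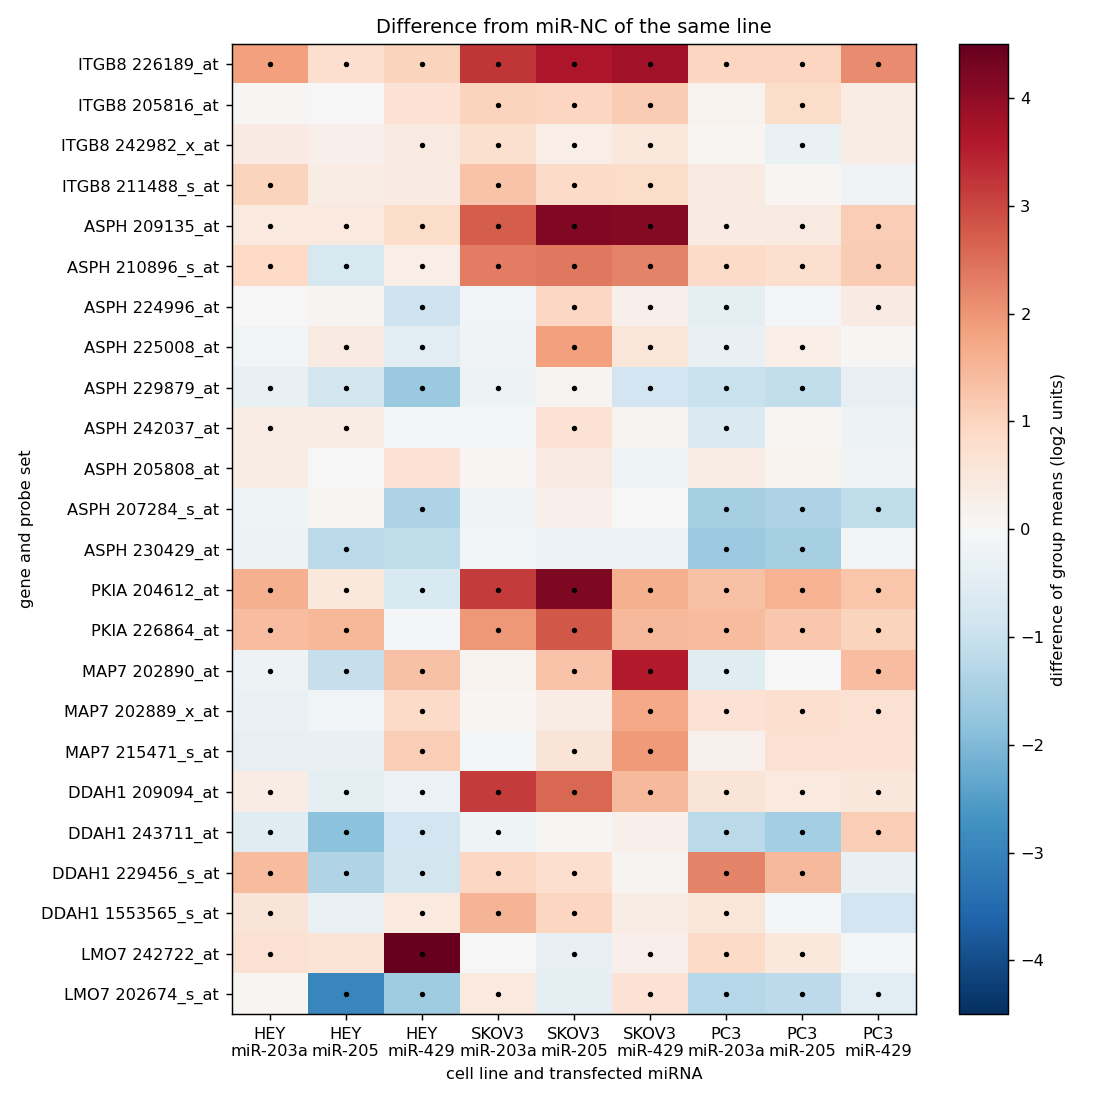
Colour gives the difference of each miRNA group from miR-NC of its line in log2 units for the 24 member probe sets (rows) in the 9 comparisons (columns), and a dot marks groups whose arrays do not overlap. The probe sets of a gene all share a sign in 9 of the 9 comparisons for PKIA, 7 for ITGB8, 6 for MAP7, 5 for LMO7, 3 for DDAH1 and 0 for ASPH.

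Among all tested probe sets the members held high places in the contrasts that chose them. In SKOV3 with miR-203a, ITGB8 ranked 1, DDAH1 2, PKIA 3 and ASPH 5 of 29950 by size of the increase. With miR-205, PKIA ranked 1, ASPH 2, ITGB8 3 and DDAH1 16, and with miR-429 ASPH ranked 3 and ITGB8 4. MAP7 has only a bound there and is given no rank. LMO7 ranked 17 in HEY with miR-429. All 9 miRNA arrays lay above the 3 miR-NC arrays for 9 of the 24 member probe sets in SKOV3 (7.68% of all tested probe sets), 2 in HEY (6.47%) and 7 in PC3 (4.42%). They lay below for 0 in SKOV3 (4.08%), 2 in HEY (10.6%) and 2 in PC3 (7.73%). The choice of members used these contrasts, so nothing is read from these counts.

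The same counts are given here for each miRNA and line. These contrasts also chose the members, and probe sets of 1 gene are not independent, so nothing is read from these counts either. In SKOV3 all 3 arrays lay above miR-NC for 12 of 24 member probe sets with miR-203a (19.5% of all tested), 17 with miR-205 (28.0%) and 16 with miR-429 (26.9%). In HEY they did so for 11 (22.0%), 6 (36%) and 9 (27.2%), and in PC3 for 10 (33.6%), 11 (30.7%) and 10 (17.6%). They lay below for 2 (15.6%), 1 (22.7%) and 1 (21.4%) in SKOV3, 3 (18.6%), 8 (35.9%) and 9 (36.8%) in HEY, and 9 (28.0%), 6 (24.3%) and 2 (32.5%) in PC3.

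**Figure D3:**
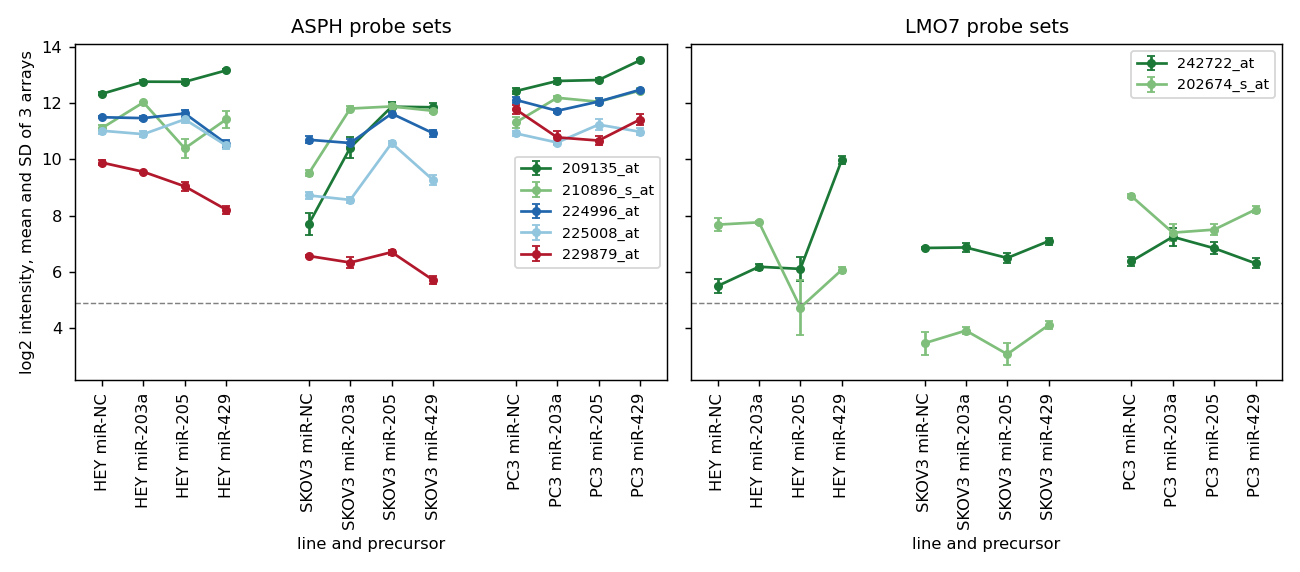
Log2 intensity (mean ± SD of 3 arrays) by line and precursor for the 5 brightest ASPH probe sets and the 2 LMO7 probe sets that passed, with a dashed line at 4.88. In HEY with miR-429, LMO7 242722_at is at 9.98, up from 5.50, while 202674_s_at lies 1.61 below its control, and ASPH 229879_at goes down where 209135_at goes up.

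Setting the miRNAs against each other within a line leaves out the control arrays. These differences use the miRNA arrays of the choosing contrasts and are also given as descriptions. In SKOV3, PKIA lay 2.58 lower and DDAH1 1.12 lower with miR-429 than with miR-205, while MAP7 lay 2.29 higher, and no arrays overlapped. ITGB8 and ASPH differed there by 0.15 and -0.02, with overlapping arrays. In PC3, miR-429 lay above miR-205 by 1.14 for ITGB8, 0.70 for ASPH and 1.41 for MAP7. In HEY, miR-429 lay above miR-203a by 3.79 for LMO7 and 1.55 for MAP7, and differed from it by -2.27 for PKIA and -0.84 for ITGB8.

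The levels in the 12 groups order differently for each gene. ITGB8 was highest in PC3 with miR-429, at 10.48, and lowest in HEY under miR-NC, at 4.29, and 5 of the 11 steps between neighbours in that order had no overlap of arrays. ASPH ran from 13.52 in PC3 with miR-429 to 7.71 in SKOV3 under miR-NC, with 6 such steps. PKIA ran from 11.61 in HEY with miR-203a to 5.42 in SKOV3 under miR-NC, with 8 steps, and DDAH1 from 13.31 to 8.11 in the same groups, also with 8. MAP7 was highest in PC3 with miR-429 and lowest in SKOV3 under miR-NC, at 4.22, with 7. For LMO7 only the step below HEY with miR-429 had no overlap. Neighbouring groups whose arrays overlap, such as SKOV3 with miR-429 and miR-205 for ITGB8, are not ordered by these data.

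The control-transfected lines were then compared, which uses no miRNA array. The miR-NC arrays are the baseline of the contrasts that chose the members, so a low control level helped a gene to be chosen. These comparisons are therefore descriptions, and no test of the members is read from them. By the brightest probe sets, SKOV3 lay below HEY by 4.62 ± 0.15 for ASPH, 4.59 ± 0.13 for PKIA and 4.88 ± 0.08 for DDAH1 (SE, n = 3 per group), and for MAP7 by at least 2.28. It lay below PC3 by 4.72, 4.35 and 4.34 for the first 3 genes and for MAP7 by at least 5.39. Other probe sets did not all follow. ASPH 205808_at lay higher in SKOV3, by 2.31 than in HEY and by 2.01 than in PC3, and the other MAP7 probe sets were below background in both SKOV3 and HEY. ITGB8 went from HEY at 4.29 ± 0.26 through SKOV3 at 6.30 ± 0.22 to PC3 at 8.36 ± 0.29 (SD, n = 3). The LMO7 probe sets went opposite ways. 242722_at lay 1.35 ± 0.17 higher in SKOV3 than in HEY and 0.47 ± 0.17 lower in PC3 than in SKOV3, while 202674_s_at was below background in SKOV3, at 3.47, and read 7.68 in HEY and 8.70 in PC3.

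PC3 and HEY differed too under miR-NC. ITGB8 lay higher in PC3 by at least 4.07, since its HEY mean is below background, and MAP7 by 3.12 ± 0.16 (SE, n = 3 per group). DDAH1 lay 0.54 ± 0.08 lower in PC3, and LMO7 0.88 ± 0.17 higher. The brightest probe sets of ASPH and PKIA differed by 0.10 ± 0.15 and -0.23 ± 0.13. Other ASPH probe sets lay higher in PC3 with no overlap of arrays, 207284_s_at by 3.43, 242037_at by 2.35, 229879_at by 1.89 and 224996_at by 0.62, and 230429_at by at least 3.02. At the threshold used for other genes, limma called 18 of the 24 member probe sets, against 58.8% of all tested probe sets. Of the 18, 14 were higher (24.3% of all tested) and 4 lower (34.5%). The same miR-NC arrays helped to choose the members, so this count cannot serve as a test of them. It is given as a description only, and nothing is read from it. The 5′ GAPDH control read 8.37 in HEY and 5.04 in PC3 under miR-NC, and 13.74 in SKOV3, and its part in these differences was not tested.

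**Figure D4:**
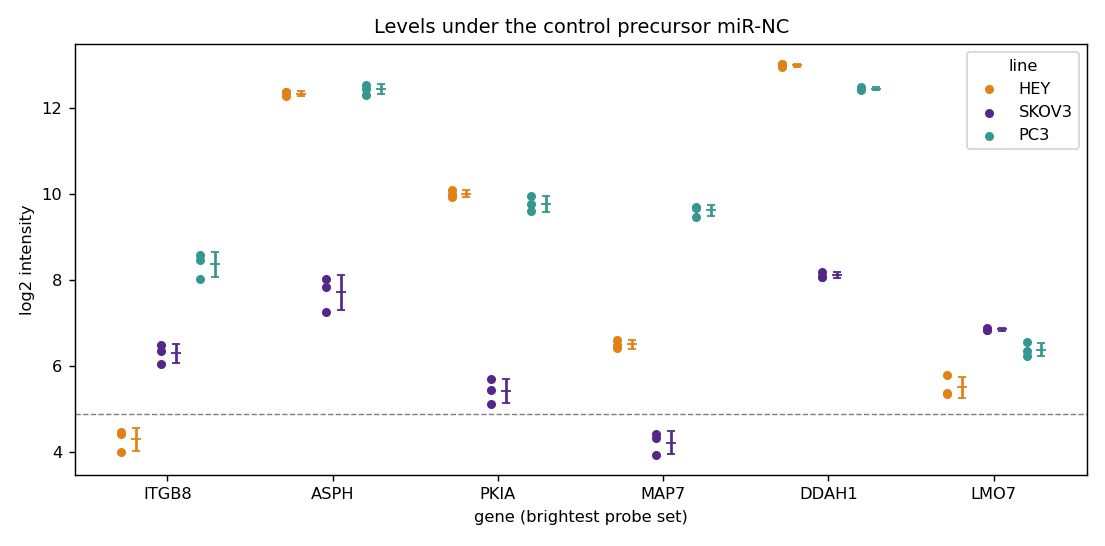
Log2 intensity of the brightest probe set of each gene on the 3 miR-NC arrays of each line, with group means. SKOV3 lies below both other lines for ASPH, PKIA, MAP7 and DDAH1, and ITGB8 goes from 4.29 in HEY to 8.36 in PC3.

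The start regions of 2 members are shown because, by their brightest probe sets, MAP7 differed with miR-429 in every line and ITGB8 with all 3 miRNAs in SKOV3. Each window runs from 250 bases before to 50 bases after a start, from RefSeq on GRCh38.p14. The letters searched were CAGGTG and CACCTG, which are the same E-box motif on the opposite strands and are known as the site of the ZEB and SNAI repressors. Of 4 MAP7 windows, the one at chr6:136550373-136550672 on the minus strand holds 2 matches, in capitals, and the others hold 0. The ITGB8 window at chr7:20330650-20330949 on the plus strand holds 0. Of 13 windows for ITGB8, MAP7, DDAH1 and LMO7, some overlapping, 5 hold a match, and 20.6% of all 35116 windows do. The LMO7 windows with a match overlap and share matches. The 5 thus counts some letters more than once, and nothing is read from it. A match describes letters and shows no binding.
MAP7: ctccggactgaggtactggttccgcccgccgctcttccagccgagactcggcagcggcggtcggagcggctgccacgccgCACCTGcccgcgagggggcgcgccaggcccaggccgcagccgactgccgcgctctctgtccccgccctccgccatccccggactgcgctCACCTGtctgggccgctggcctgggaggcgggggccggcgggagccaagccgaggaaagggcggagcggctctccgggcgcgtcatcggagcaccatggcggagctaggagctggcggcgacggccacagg
ITGB8: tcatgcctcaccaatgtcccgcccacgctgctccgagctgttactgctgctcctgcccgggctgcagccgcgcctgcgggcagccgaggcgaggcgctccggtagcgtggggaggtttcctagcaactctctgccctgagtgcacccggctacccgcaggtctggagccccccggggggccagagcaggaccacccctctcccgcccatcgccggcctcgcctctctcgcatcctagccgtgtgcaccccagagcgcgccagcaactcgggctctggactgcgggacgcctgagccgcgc

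The pathways around the members were followed in 6 gene lists, with members left out. Of 104 genes written, 92 were tested against miR-NC with limma, each by its brightest probe set. In SKOV3 the list genes called were 9 higher (8.13% of all tested probe sets) and 8 lower (5.70%) with miR-203a, 32 higher (17.2%) and 8 lower (10.5%) with miR-205, and 15 higher (16.5%) and 8 lower (7.85%) with miR-429. In HEY they were 10 higher (8.93%) and 5 lower (8.75%), 33 higher (34.6%) and 43 lower (34.5%), and 21 higher (25.9%) and 43 lower (35.8%). In PC3 they were 37 higher (33.2%) and 26 lower (27.1%), 39 higher (29.5%) and 19 lower (22.7%), and 20 higher (15.8%) and 23 lower (32.7%). The shares in brackets cover all tested probe sets, dim ones included, while each list gene counts once by its brightest probe set. Counts and shares are thus not like for like. The median difference of all tested probe sets lay between -0.18 and 0.07 over the 9 comparisons. The 15 calls in HEY with miR-203a became 9 without HEY miR-NC replicate 1 and 7 without HEY miR-203a replicate 2. The 3 comparisons within a line share their miR-NC arrays.

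For ITGB8, 12 genes of αv integrins and TGF-β activation were tested. In SKOV3, 2 were higher and 1 lower with miR-203a, 4 and 0 with miR-205, and 2 and 1 with miR-429. The list median ran from -0.38 in HEY with miR-429 to 0.29 in SKOV3 with miR-205. ITGAV, the αv chain, fell by 0.51 and 0.80 in HEY with miR-205 and miR-429 and by 0.76 in PC3 with miR-203a (SE 0.11). LTBP1, which anchors latent TGF-β in the matrix, fell by 1.44 and 1.95 in HEY with miR-205 and miR-429 and rose by 0.66 in SKOV3 with miR-205 (SE 0.11). TGFBR1, the type I TGF-β receptor, rose by 1.12, 1.38 and 1.42 in SKOV3 (SE 0.13). Over all lines it had 8 calls, 6 higher and 2 lower (largest adjusted p = 0.023 from limma). The lower ones were in HEY, at -0.58 with miR-205 and -0.63 with miR-429. When probe sets that may cross-hybridise were left out, another TGFBR1 probe set stood in, 7 of those 8 calls did not hold, and PC3 with miR-429 gave -0.88 in place of 0.95.

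For ASPH, 18 hydroxylase and ER calcium genes were tested. In SKOV3 with miR-205, 8 were higher and 1 lower, and in HEY with miR-429, 2 were higher and 8 lower. The median ran from -0.32 in HEY with miR-429 to 0.40 in PC3 with miR-205. ATP2A2, the calcium pump of the ER, rose in all 3 SKOV3 and all 3 PC3 comparisons, by 0.32 to 0.96, and fell by 0.73 and 0.49 in HEY with miR-205 and miR-429 (SE 0.09, largest adjusted p = 0.00248). ITPR2, a calcium channel of the ER, rose by 0.97, 2.04 and 1.41 in SKOV3 and fell by 0.94 and 0.97 in PC3 with miR-203a and miR-205 and by 1.43 in HEY with miR-429 (SE 0.15). PLOD1, a lysyl hydroxylase, rose by 3.14 in HEY with miR-205 and by 2.26 and 2.54 in PC3 with miR-203a and miR-205 (SE 0.15), the 3 groups where the 5′ GAPDH control was 3.66 to 4.95 above miR-NC. It also rose by 1.30 in HEY with miR-429, where that control differed by -2.11, and by 0.77 in SKOV3 with miR-205, and the part of that control was not tested.

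For PKIA, 21 cyclic AMP and PKA genes were tested. In SKOV3 with miR-205, 7 were higher and 1 lower, and in HEY with miR-205 and miR-429, 5 and 3 were higher and 13 and 11 lower. The median ran from -0.39 in HEY with miR-205 to 0.19 in SKOV3 with miR-205. PRKACB, a catalytic subunit of the kinase that PKIA inhibits, was lower in 8 of 9 comparisons, by 0.31 to 0.85 (SE 0.10, largest adjusted p = 0.00645), and differed by -0.10 in SKOV3 with miR-205, which did not pass. ADCY9, an adenylyl cyclase, fell by 0.73 and 1.13 in SKOV3 with miR-203a and miR-429 and by 1.69 and 1.07 in HEY with miR-205 and miR-429 (SE 0.15). AKAP12, which anchors the kinase, rose by 0.59 and 1.18 in SKOV3 with miR-203a and miR-205 and fell by 0.54 in PC3 with miR-203a (SE 0.09).

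For DDAH1, 15 methylarginine and nitric oxide genes were tested. In SKOV3, 0, 2 and 1 were higher and 0, 1 and 1 lower. In HEY with miR-205, 8 were higher and 5 lower, and in PC3 with miR-205, 8 and 3. The median ran from -0.40 in PC3 with miR-429 to 0.48 in HEY with miR-205. With miR-203a in SKOV3, where limma called 0 genes of this list, DDAH1 itself lay 3.14 above miR-NC. DDAH2, which breaks down the same inhibitor, rose by 2.04 in HEY with miR-205 and by 1.90 and 1.54 in PC3 with miR-203a and miR-205, and differed by -0.15 to -0.01 in SKOV3. ASL, which makes arginine, rose by 3.61 in HEY with miR-205 and by 2.42 and 2.12 in PC3 with miR-203a and miR-205 (SE 0.18). CARM1, an arginine methyltransferase, rose by 1.36, 1.04 and 0.86 in the same 3 groups (SE 0.14). In these groups the 5′ GAPDH control lay 3.66 to 4.95 above miR-NC. In HEY with miR-429, where it differed by -2.11, ASL rose by 1.35, DDAH2 by 1.15 and CARM1 by 0.60, and the part of that control was not tested. PRMT3, another such enzyme, fell by 0.85 in HEY with miR-205 and rose by 0.79 in SKOV3 with miR-205 (SE 0.14).

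For MAP7, 12 microtubule-associated protein and kinesin-1 genes were tested. With miR-429, 3 were higher and 7 lower in HEY, 2 and 2 in SKOV3, and 4 and 4 in PC3. The median ran from -0.52 in HEY with miR-429 to 0.43 in PC3 with miR-205. KIF5B, the kinesin-1 heavy chain that MAP7 recruits, rose with miR-429 by 0.59 in PC3 and fell with it by 0.53 in HEY (SE 0.11). With miR-205 it fell by 1.66, 0.63 and 0.78 in HEY, SKOV3 and PC3, and with miR-203a it differed by -0.42 in PC3. MAP4 rose by 0.26 and 0.62 with miR-429 in HEY and PC3 and fell by 0.48 in SKOV3 (SE 0.09). With miR-205 it differed by 0.85, -0.32 and 0.53 in HEY, SKOV3 and PC3. MAP1A fell with miR-429 by at least 0.95 in HEY and by 1.42 in PC3 (SE 0.17). With miR-205 it rose by 1.00 in HEY and differed by -1.19 in PC3. With miR-203a MAP1A differed by -1.03 in PC3. Its SKOV3 difference with miR-429, -0.45, had an adjusted p of 0.0482 from limma, and that call was lost in 9 of 14 alternatives, 4 of them without SKOV3 miR-NC replicate 1 or 2 or miR-429 replicate 1 or 3. The paralog MAP7D3 rose by 0.90 in PC3 with miR-429 and differed by -0.24 and 0.26 in HEY and SKOV3, which did not pass. With miR-205 it differed by -1.28 in HEY and 0.55 in PC3, and both were called.

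For LMO7, 14 LIM and adherens junction genes were tested. With miR-429, 6 were higher and 6 lower in HEY, 4 and 0 in SKOV3, and 4 and 1 in PC3. The median ran from -0.12 in HEY with miR-429 to 0.52 in SKOV3 with miR-205. NECTIN2, a cell adhesion molecule that binds afadin, was higher in 9 of 9 comparisons, by 0.90, 0.44 and 0.84 in HEY, 1.42, 1.17 and 0.91 in SKOV3 and 1.44, 1.76 and 1.61 in PC3 (SE 0.11, largest adjusted p = 0.000922). NECTIN3 fell by 0.89 in HEY with miR-205 and again with miR-429, and rose by 1.08 and 0.89 in SKOV3 with these miRNAs (SE 0.15). With miR-203a it fell by 0.68 in SKOV3 and by 1.10 in PC3. PDLIM2, a LIM-domain protein that binds actin filaments, rose by 2.10 and 0.61 in HEY with miR-205 and miR-429 (SE 0.14). It rose by 0.62 in SKOV3 with miR-205 and by 1.00 and 1.20 in PC3 with miR-203a and miR-205. In HEY with miR-205 and in these PC3 groups the 5′ GAPDH control lay 3.66 to 4.95 above miR-NC. In HEY with miR-429 that control differed by -2.11, and its part in the PDLIM2 values was not tested. LIMCH1, related to LMO7, fell in HEY by 1.22 with miR-205 and by 1.05 with miR-429. Its fall of 0.42 with miR-203a there was not called with all 45 arrays in the fit, which takes in the 9 arrays that go against their labels. In HEY 242722_at of LMO7 lay 4.48 higher with miR-429 and overlapped its controls with miR-205. LIMCH1 also differed with miR-205 by 0.59 in SKOV3 and -0.56 in PC3.

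Likeness of pattern was measured as Pearson's correlation over the 36 transfected arrays after subtracting each line's mean, which describes arrays that share their groups. ITGB8 and ASPH correlated at 0.90, PKIA and DDAH1 at 0.85, and LMO7 with the other members at -0.29 to 0.34. The members were chosen by their differences from miR-NC on these same arrays, which can by itself make their patterns alike. Nothing is therefore read from the correlations between members. Among 15028 genes the patterns most like ITGB8 were those of RDH11 (0.95), SPRING1 (0.95) and STEEP1 (0.94), and for ASPH those of UBLCP1 (0.95), ERLIN2 (0.94) and ALDH1A3 (0.93). For PKIA they were BCAP29 (0.95), WDR82 (0.91) and SEMA4F (0.90), and for DDAH1 BCAP29 again (0.89), KLHDC10 (0.87) and SLC11A2 (0.87). For MAP7 they were SPOPL (0.94), MPZL2 (0.93) and MAD2L1 (0.89), and for LMO7 RPN1 (0.94), SPINT2 (0.93) and ZNF800 (0.91). Between probe sets of 1 gene the same measure was 0.91 for PKIA and 0.78 and 0.84 for MAP7 against the brightest. It ran from -0.28 to 0.79 for ASPH, from 0.00 to 0.64 for DDAH1, and from -0.27 to 0.64 for LMO7.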

How the data were processed

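The values are log2 intensities that the authors deposited for 45 arrays; RMA, a method of background correction, normalization and probe set summary, is named in the submitters' processing notes, with no version. Of 54675 probe sets, 41097 carry 1 gene symbol in the platform annotation, 1801 several and 11777 none, and only the first kind was used. One mean per group was fitted to the 36 transfected arrays in R 4.3.3 by limma 3.58.1, using lmFit and then eBayes (24 residual and 4.74 prior degrees of freedom), over 29950 probe sets. Tests were two-sided, with Benjamini-Hochberg adjustment over all of them and a threshold of 0.05. The fit was tested on simulated data. A gene outside the members is represented by the probe set with the highest mean over these arrays.

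The members and the gene lists were chosen with earlier results of these data known. Named genes are every member, the 3 genes of each list called in most comparisons, and the 3 genes whose pattern correlates best with each member; DDAH2, MAP7D3 and LIMCH1 are relatives of members chosen from the lists after their values were seen. ITGB6 and CTNND1 had no probe set of 1 symbol. Sequences come from RefSeq tables on GRCh38.p14. Alternatives were other array sets, normalizations, filters and probe set choices, a robust prior with intensity trend, a replicate block and each array left out in turn.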

Additional observations from a re-analysis of the deposited data

Results flagged for a closer look

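By their brightest probe sets, some members lay on opposite sides of miR-NC in different lines, with every miRNA array of each line on its side. The differences between lines were not tested. With miR-429, PKIA differed from miR-NC by -0.67 in HEY, 1.61 in SKOV3 and 1.24 in PC3. DDAH1 with the same miRNA differed by -0.28, 1.47 and 0.50. With miR-205, DDAH1 differed by -0.39 in HEY, 2.60 in SKOV3 and 0.44 in PC3. MAP7 differed by -1.02 in HEY and by at least 1.28 in SKOV3 with miR-205, and LMO7 by -0.36 in SKOV3 and 0.46 in PC3. Other probe sets did not all follow. In HEY with miR-429, PKIA 226864_at overlapped miR-NC, at -0.05, and DDAH1 1553565_s_at lay 0.45 above it. DDAH1 243711_at lay 1.53 below miR-NC in PC3 with miR-205, and LMO7 202674_s_at 1.19 below. The other MAP7 probe sets overlapped miR-NC in HEY with miR-205, below background. DDAH1 243711_at did follow in HEY, at -1.84 with miR-205 and -0.87 with miR-429. In the HEY groups of miR-205 and miR-429 the 5′ GAPDH control differed from miR-NC by 3.92 and -2.11, and its part in these values was not tested. Each group holds 3 arrays, too few for a check of single outlying arrays.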

How the results depend on the processing

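Of 3069 refits of 207 tested results, 2947 kept direction and side of the threshold, 97 lost and 22 gained the call and 3 reversed. These totals include the member differences between control-transfected lines, from which no call is read. The reversals are TGFBR1 without _x_at and _s_at probe sets, at 0.12 in HEY with miR-429 (adjusted p = 0.716), -0.40 in PC3 with miR-203a (adjusted p = 0.196) and -0.88 in PC3 with miR-429 (adjusted p = 0.00613), all from limma. The list genes called in HEY with miR-203a, 15, became 9 with all 45 arrays in the fit. That fit takes in the arrays that go against their labels. The calls became 25 with only the arrays of the groups compared. They lay between 7 and 13 with 1 array left out, with 9 without HEY miR-NC replicate 1 and 7 without HEY miR-203a replicate 2. The cause of these changes was not tested. A stricter filter, 7.53, and leaving out _x_at and _s_at probe sets reduce counts by construction. With the filter, the member probe sets above miR-NC became 5 in HEY with miR-429, 7 in SKOV3 with miR-203a and 11 with miR-205. Without the suffixed probe sets the counts above became 7 and 4 in HEY with miR-203a and miR-429, 6, 11 and 10 in SKOV3, and 6 in PC3 with miR-203a. Of the 54 member differences, 3 changed sign under some alternative, and 0 of the 37 over 0.5 in size did, apart from averaging the probe sets of each gene. That moved 45 of the 54 by more than the spread between arrays and changed the sign of 9, such as ASPH in HEY with miR-429, from 0.83 to -0.44, and LMO7 in PC3 with miR-203a, from 0.87 to -0.22. ASPH in SKOV3 with miR-429 went from 4.14 to 0.66. The median of all tested probe sets was -0.18 in PC3 with miR-429, 0.00 after quantile normalization and 0.23 after subtracting array medians. The replicate numbers did not pair the arrays: the 36 same-numbered pairs correlated at -0.14 to 0.17, and in 1 of 12 comparisons every array correlated best with its own number. With the number as a replicate block the list genes called were 13 in HEY with miR-203a and 15, 39 and 22 in SKOV3.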
